A study of Mus musculus with 14 samples.

Results

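The myosin genes were followed here through chromatin accessibility in long-term haematopoietic stem cells (LT-HSC) of mice. Members were the protein-coding RefSeq genes whose symbols name an unconventional myosin (Myo and a digit), a conventional heavy chain (Myh and a digit), or a light chain or light chain kinase (Myl and a digit, or Mylk). The rule gave 54 of 21900 protein-coding genes. Every consensus peak that overlapped the span of such a gene, or lay within 1 kb of its ends, was taken: 188 of 57289 peaks (0.328%), in 42 of the 54 genes. Peaks were 700 bp long and their coordinates are given on mm10.

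Accessibility was measured by bulk ATAC-seq, in which a transposase cuts open chromatin and inserts sequencing adapters, so that reads per peak rise with openness. The 14 libraries came from bone marrow LT-HSC of C57BL/6 mice. Aged Ri libraries (n = 5) came from cells of mice over 80 weeks old that were given Rhosin, an inhibitor of the small GTPase RhoA, at 100 µM. Aged libraries (n = 5) came from mice of the same age without the inhibitor, and young libraries (n = 4) from mice 10 to 16 weeks old without it. Cells of all 3 groups, controls included, spent 16 h in culture at 37 °C and 3% oxygen before lysis, so none of the libraries shows freshly isolated cells. The labels do not say whether libraries of a group came from separate animals, so the p-values measure the spread between these libraries, which may be technical.

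Myosins are motors that move along actin filaments by hydrolysing ATP. Conventional myosin II is built from heavy chains with regulatory and essential light chains, and it contracts when a kinase phosphorylates the regulatory light chain. RhoA acts on this step through the kinases ROCK1 and ROCK2, which inhibit the phosphatase that removes the phosphate and can phosphorylate the light chain directly. Unconventional myosins carry cargo, tether membranes or shape protrusions, and the class IX members also hold a domain that switches RhoA off.

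Counts in peaks ran from 765533 (young 3) to 3176246 (aged Ri 3) per library. CPM are counts set to a common library size after scaling by the trimmed mean of M-values (TMM), and gene sums add the counts over all peaks of a gene. Peaks and gene sums were scaled separately, so a gene with a single peak has somewhat different CPM on the 2 scales. The share of counts at annotated gene ends was 35.9 to 46.8% in aged Ri, 38.8 to 49.6% in aged and 47.0 to 50.8% in young libraries. It was lower in both aged groups than in young on average, and its part in the age comparisons was not tested beyond the fits with that share as a covariate, which are given beside the results. Each of the 12 stem cell markers had a peak, and among the markers of other cells without one were Ly6g, S100a8, S100a9, Cd3e, Cd8a, Slc4a1, Ppbp, Myog, Nppa, Des, Cnn1 and Cxcl12. Peaks were present, though, at 4 of 7 neutrophil and monocyte, 3 of 6 B and T cell and 4 of 5 erythroid markers. They were also present at 7 of 8 megakaryocyte and platelet, 3 of 5 smooth muscle and stroma and 3 of 3 endothelial markers. The summed accessibility of 4 measured skeletal and cardiac muscle markers, of 7 listed, was 79 to 112 CPM in aged Ri, 75 to 107 CPM in aged and 89 to 114 CPM in young libraries, and none of the 4 was called in any comparison. Other lists differed with age. In aged against young libraries 4 of 12 stem cell sums (Mecom, Hoxb5, Tek and Slamf1) and 3 of 7 measured megakaryocyte and platelet sums (Gp1ba, Vwf and F2rl2) were higher, and no marker sum was lower. In aged Ri against young libraries 6 of 12 stem cell sums, Gp1ba and the endothelial marker Cdh5 (1 of 3) were higher, and the B cell marker Pax5 was lower. In aged Ri against aged libraries no marker sum was called, and 1 marker peak was, of the endothelial gene Pecam1, higher in aged Ri (log2 fold change 1.43). The megakaryocyte and platelet sum ran over 336 to 431 CPM in aged Ri, 418 to 546 CPM in aged and 277 to 425 CPM in young libraries, and Ppbp of that list had no peak. The part of these markers in the myosin results was not tested.

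The 12 myosin genes without a peak were mostly genes of striated muscle. They were the heavy chains Myh1, Myh2, Myh3, Myh4, Myh6, Myh7, Myh8 and Myh13, the light chains Myl3, Myl7 and Myl9, and the class I motor Myo1a. Myl9, a regulatory light chain abundant in smooth muscle and platelets, was the only listed component of cytoplasmic myosin II without a peak. Its paralogs Myl12a and Myl12b both had peaks at their start sites. A gene without a consensus peak has no count here, and its openness was not analysed.

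Most myosin peaks lay inside the genes rather than at start sites. Of the 190 gene and peak pairs (2 peaks are shared by the neighbours Myl6 and Myl6b), 33 lay within 1 kb of a listed start site, 142 inside the span and 15 at an annotated end. Start-site peaks made up 17.6% of the myosin peaks, against 30.4% of all peaks in or near genes. The median span of the myosin genes was 55.5 kb, against 17.1 kb over all protein-coding genes, and the part of length in that share was not tested. Start sites were listed for 47 of the 54 members. In 15 peaks another gene shared the peak, so their counts cannot be assigned to the myosin gene alone.

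Start sites with a peak were richer in G, C and CpG than those without. Over the 250 bases before and 50 bases after each start, the median GC content was 61.0% in 32 myosin start sites with a peak within 1 kb and 52.0% in 27 without a peak. The median count of CpG was 12.5 with a peak and 4 without. Over all protein-coding start sites the medians of GC content were 60.4% with a peak and 47.2% without.

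A CArG box, the binding motif of serum response factor, a regulator of actin and myosin genes, was searched for on both strands of the same windows. It was found in 6 of 59 myosin start sites (10.2%) and in 295 of all 21263 (1.39%). A match is a description of the letters and not of binding. The 6 are printed here. They were 2 of the 32 myosin start sites with a peak (6.25%) and 4 of the 27 without (14.8%). Over all protein-coding start sites the shares were 1.08% with a peak and 1.86% without. With so few matches the myosin shares do not set the start sites apart by accessibility, and no test was run. Each sequence is the 250 bases before the start, 5′ to 3′ in the sense of the gene, from RefSeq on GRCm38.p6, and capitals mark the CArG box. The pair with a peak were the Myo1e start and the more downstream of the listed Myl6 starts.
Myo1e, chr9:70207100-70207349, plus strand: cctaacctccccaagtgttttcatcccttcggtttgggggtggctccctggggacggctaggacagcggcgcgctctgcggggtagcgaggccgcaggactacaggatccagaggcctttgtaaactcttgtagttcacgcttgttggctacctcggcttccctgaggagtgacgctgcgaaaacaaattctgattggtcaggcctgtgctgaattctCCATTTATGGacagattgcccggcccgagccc
Myl6, chr10:128493010-128493259, minus strand: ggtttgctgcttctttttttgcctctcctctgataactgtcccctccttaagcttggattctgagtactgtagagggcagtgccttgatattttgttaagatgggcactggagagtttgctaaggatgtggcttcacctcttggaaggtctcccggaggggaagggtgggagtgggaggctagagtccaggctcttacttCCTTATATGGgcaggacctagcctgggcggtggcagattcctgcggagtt
The 4 without a peak were the light chains Myl9, Myl3 and Myl7 and the fast skeletal heavy chain Myh4.
Myl9, chr2:156775214-156775463, plus strand: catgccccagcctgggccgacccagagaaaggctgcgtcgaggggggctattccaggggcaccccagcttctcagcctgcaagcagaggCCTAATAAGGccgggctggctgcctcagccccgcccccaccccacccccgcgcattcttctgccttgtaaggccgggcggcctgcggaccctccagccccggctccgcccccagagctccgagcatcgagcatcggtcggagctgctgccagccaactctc
Myl3, chr9:110763428-110763677, plus strand: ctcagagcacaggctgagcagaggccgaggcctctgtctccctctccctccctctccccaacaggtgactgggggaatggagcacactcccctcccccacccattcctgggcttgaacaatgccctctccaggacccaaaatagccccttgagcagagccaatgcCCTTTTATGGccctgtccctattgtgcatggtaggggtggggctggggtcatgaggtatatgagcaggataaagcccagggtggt
Myl7, chr11:5898783-5899032, minus strand: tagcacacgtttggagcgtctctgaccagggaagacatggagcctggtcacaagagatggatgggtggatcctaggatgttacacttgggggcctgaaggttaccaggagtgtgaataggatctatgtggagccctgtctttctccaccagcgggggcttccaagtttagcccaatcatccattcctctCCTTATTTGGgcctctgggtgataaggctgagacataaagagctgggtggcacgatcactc
Myh4, chr11:67237562-67237811, plus strand: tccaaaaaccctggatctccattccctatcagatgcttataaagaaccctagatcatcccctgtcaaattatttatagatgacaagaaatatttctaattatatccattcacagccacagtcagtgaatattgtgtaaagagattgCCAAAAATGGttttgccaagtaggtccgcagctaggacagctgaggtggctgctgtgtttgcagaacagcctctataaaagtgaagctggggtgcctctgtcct
Myo1e encodes a long-tailed class I motor that links membranes to actin. Its start-site peak averaged 33.2 ± 5.7 CPM in aged Ri, 25.7 ± 5.4 CPM in aged and 30.8 ± 2.2 CPM in young libraries (SD, n = 5, 5 and 4). The Myl6 window printed above lies within a peak that differed between aged Ri and young libraries, described further on.

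Per kb of peak, 5 genes led the levels. Myo3a, a class III motor with a kinase domain known from the hair cells of the inner ear, stood far above the rest with 5683 CPM per kb of peak in aged Ri, 5764 in aged and 4671 in young libraries. Myl12a, a regulatory light chain of cytoplasmic myosin II, followed with 147.6 in aged Ri, 134.0 in aged and 162.9 in young libraries. Myo9a, a class IX motor, had 113.8 CPM per kb in aged Ri, 113.2 in aged and 163.5 in young libraries. Myl6b and the kinase gene Mylk4 came next, and the remaining genes spread down to Myh11, the smooth muscle heavy chain, at 7.4 in aged Ri, 7.1 in aged and 10.2 in young libraries. The only peak of Myl12a is shared with Myom1, and the only peak of Myo9a with Senp8. Of the Myl6b peaks 2 of 3 are shared with Myl6, and of the Mylk4 peaks 1 of 2 with Wrnip1. The levels of these 4 genes therefore cannot be assigned to the myosin gene alone. Of the 41 neighbouring pairs in this order, 36 overlapped in their mean ± SD in aged Ri, 38 in aged and 31 in young libraries, so most neighbours do not differ beyond their spread.

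**Figure D1:**
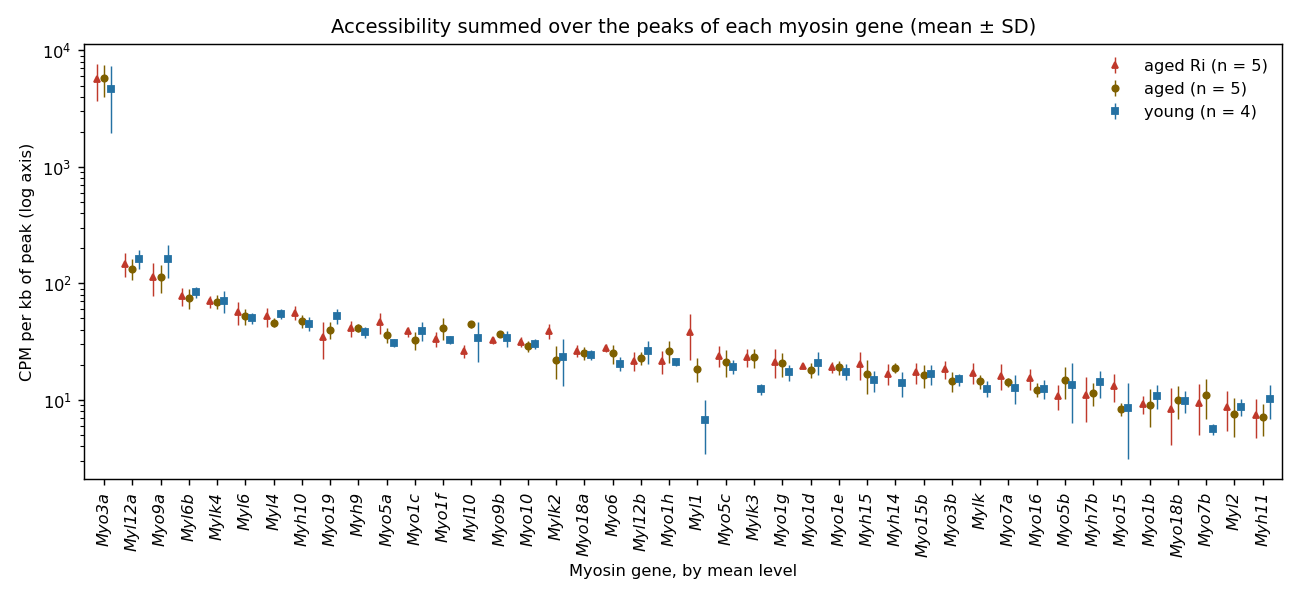
CPM per kb of peak on a log axis for the 42 myosin genes with a peak, as mean ± SD over libraries, for aged Ri (n = 5), aged (n = 5) and young (n = 4). Myo3a lies between 4671 and 5764, and Myl12a, the next, whose only peak is shared with Myom1, lies between 134.0 and 162.9.

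The level of Myo3a came from a pair of peaks inside the gene. They were its only peaks, and it had none at its start site, so the level does not describe the rest of the gene. They lay at chr2:22589075-22589774 and chr2:22587581-22588280, 361921 and 360427 bp from the start site, and ranked 2 and 3 of all peaks in the data by mean CPM. Together they held 60.5 to 77.2% of the myosin counts in aged Ri, 56.8 to 76.0% in aged and 49.5 to 77.9% in young libraries. The highest and the lowest share were both in young libraries, young 3 (the shallowest) and young 1. The Myo3a gene sum was not called in any comparison, at log2 fold changes of 0.01 ± 0.30 for aged Ri against aged, 0.23 ± 0.33 for aged against young and 0.23 ± 0.33 for aged Ri against young (SE). What sets the height of these peaks was not tested.

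Totals over the myosin genes therefore depended on these peaks. With them, the myosin share of all counts was 0.736 to 1.29% in aged Ri, 0.639 to 1.18% in aged and 0.595 to 1.33% in young libraries. Without them it was 0.287 to 0.297% in aged Ri, 0.276 to 0.283% in aged and 0.284 to 0.301% in young libraries. The ranges of all 3 groups overlapped with them. Without them the highest aged library had 0.283%, the lowest aged Ri library 0.287% and the lowest young library 0.284%. Aged Ri and young overlapped. The total still held the counts of the Myo3a peaks, whose share differs between libraries. The narrow gap between aged and young depends on that total and does not set these groups apart.

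**Figure D2:**
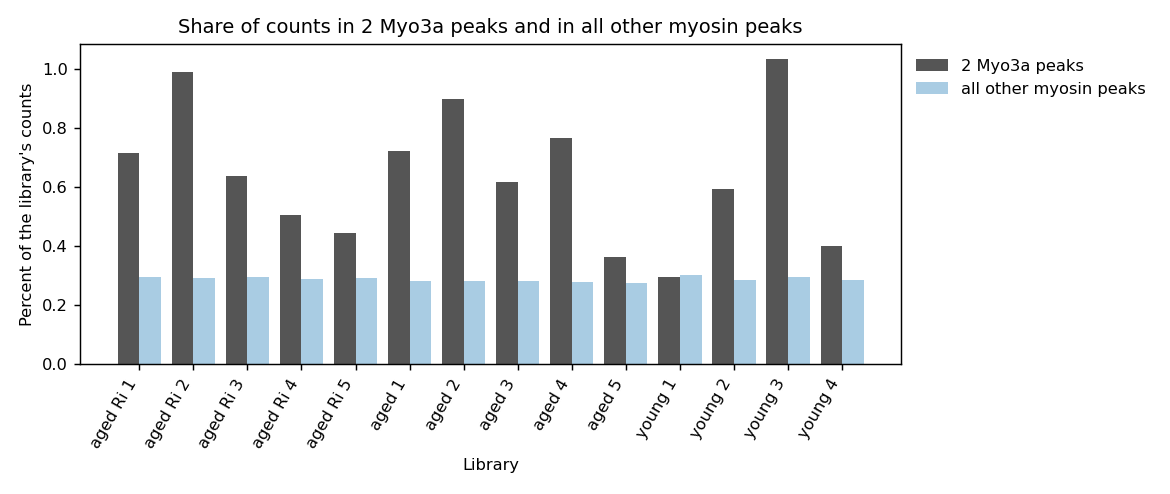
Percent of each library's counts in the 2 Myo3a peaks (dark bars) and in all other myosin peaks (light bars). The dark bars run from 0.294% in young 1 to 1.03% in young 3, and the light bars stay between 0.276 and 0.301%.

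Differences were tested with edgeR's quasi-likelihood test on all 14 libraries, with group and sequencing batch as terms, and p-values were adjusted by Benjamini-Hochberg over all 56235 peaks or all 15534 gene sums tested, at a threshold of 0.05. Of the myosin peaks 185 of 188 passed the filter on low counts, and all 42 gene sums did. Each group enters 2 of the 3 comparisons, so these share libraries and are not independent.

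Few myosin sites differed between aged cells with and without Rhosin. In aged Ri against aged libraries, 2 of 185 myosin peaks were called, 1 higher and 1 lower, against 0.446% of all peaks. At the gene level 1 of 42 sums was called, Myl10, against 0.0515% of all genes. None of the 33 start-site peaks was called by edgeR (2 at an unadjusted p under 0.05) or by DESeq2, against 0.0894% of all start-site peaks. Aged Ri and aged libraries of equal replicate number were taken as pairs because their deviations correlated. The labels do not give this pairing, and both libraries of a pair share a batch. After removal of batch means the median correlation was 0.084 for equal numbers and -0.016 for other pairs. Only 1 of 5 aged Ri libraries then correlated best with its own number. A pairing beyond the batch is therefore not established, and the results with the block rest on it. With the number as a block 12 of 169 myosin peaks were called, 8 higher and 4 lower, against 4.42% of all peaks. Of 141 inside peaks 2 were called without the block, against 0.54% of all inside peaks.

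The peak that fell was in Myo9b, a class IX motor whose tail acts as a GTPase-activating protein on RhoA. It lay inside the gene at chr8:71296172-71296871, 23807 bp from the start. It had 7.81, 3.41, 5.49, 3.60 and 6.06 CPM in aged Ri libraries 1 to 5, against 13.6, 14.6, 13.5, 13.7 and 16.0 CPM in aged libraries 1 to 5. Every aged Ri library lay below every aged library, and the 4 young libraries (5.77, 11.0, 15.6 and 9.67 CPM) spanned both. The log2 fold change was -1.42 ± 0.29 (SE), 2.68-fold lower in aged Ri, with an adjusted p of 0.0191, and 0.00011 with the block. Within batches the difference of mean log2 CPM was -1.28, -1.42 and -1.27. The call was lost without aged 2, 3 or 4 or aged Ri 2, 3 or 4, with adjusted p up to 0.116, and held with the share of counts at gene ends as a covariate (0.0134). The start-site peak of Myo9b, shared with Haus8, stood at 90.5 ± 21.9 CPM in aged Ri and 90.2 ± 20.5 CPM in aged libraries.

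The peak that rose was in Myo16, a class XVI motor studied mainly in neurons. It lay at chr8:10534714-10535413, 381152 bp inside the gene. It had 17.7, 28.9, 56.2, 33.1 and 23.0 CPM in aged Ri libraries 1 to 5, against 12.03, 11.7, 13.5, 14.4 and 14.7 CPM in aged libraries 1 to 5. The groups did not overlap, and the young libraries (14.7, 17.2, 12.8 and 15.0 CPM) lay with the aged ones. The log2 fold change was 1.22 ± 0.24 (SE), 2.33-fold higher in aged Ri, with an adjusted p of 0.0131, and 8.09e-06 with the block. The call was lost without aged 3 or 4 or aged Ri 2 or 3, with adjusted p up to 0.165, and held with the covariate (0.0134).

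Myl10, a regulatory light chain, fell as a gene sum. It had 48.7, 57.0, 48.8, 53.8 and 66.0 CPM in aged Ri libraries, against 88.5, 92.3, 103, 91.5 and 90.6 CPM in aged libraries. The groups did not overlap, while the young libraries (50.9, 76.4, 50.5 and 107 CPM) ran from the level of the aged Ri libraries to above the aged ones. The log2 fold change was -0.78 ± 0.15 (SE), 1.72-fold lower in aged Ri, with an adjusted p of 0.0317, and 0.000384 with the block. The 3 Myl10 peaks each had a negative log2 fold change, -0.67, -0.98 and -1.33, none called singly without the block and all 3 called with it. The call was lost without aged 1, 2, 3 or 4 or aged Ri 1, 3 or 5, with adjusted p up to 0.206, and held with the covariate (0.00169).

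The other 7 peaks called only with the block were all higher in aged Ri. The largest was in Myo1d, a class I motor, with a blocked log2 fold change of 1.22 ± 0.26 and an adjusted p of 0.000888. Peaks of Myl1 (0.98 ± 0.21, adjusted p = 0.0012), Myh15 (0.92 ± 0.23, 0.00569), Mylk2 (0.80 ± 0.20, 0.00736), Myo5a (0.78 ± 0.19, 0.00564), Mylk (0.69 ± 0.20, 0.0295) and Myo3b (0.68 ± 0.22, 0.0498) also passed in that fit. As gene sums, Myl1 and Mylk2 joined Myl10 with the block, at adjusted p of 0.0106 and 0.0396, against 1.18% of all genes called in that fit.

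**Figure D3:**
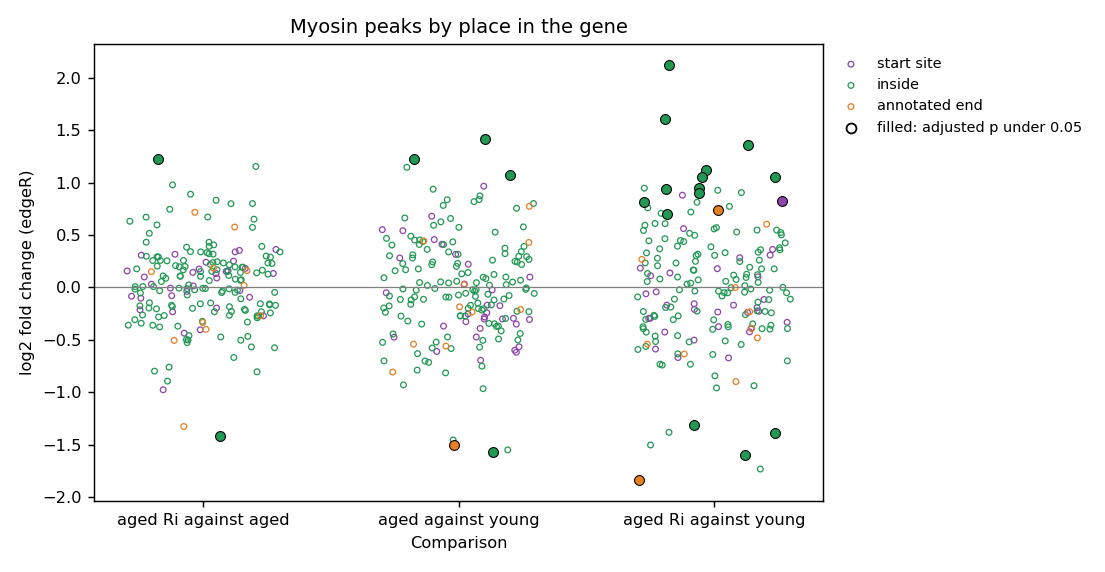
Log2 fold change of each tested myosin peak in aged Ri against aged, aged against young and aged Ri against young, with colour for the place of the peak in the gene and filled points for an adjusted p under 0.05. Filled points number 2, 5 and 17 of 185 in the 3 comparisons, of which 2, 4 and 14 lie inside genes.

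Few myosin sites differed with age. In aged against young libraries, 5 of 185 myosin peaks were called, 3 higher and 2 lower, against 5.72% of all peaks, and 30 had an unadjusted p under 0.05. At the gene level 2 of 42 sums were called, both higher, against 4.54% of all genes. No start-site peak of the 33 was called by edgeR (8 at an unadjusted p under 0.05) or by DESeq2, against 2.50% of all start-site peaks. Of 141 inside peaks 4 were called, against 6.62% of all inside peaks. The median log2 fold change of the myosin start-site peaks was -0.25, beside -0.24 over all start-site peaks.

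Mylk3, a light chain kinase gene best known from heart muscle, rose as a gene sum. It had 43.2, 46.1, 64.4, 46.1 and 43.0 CPM in aged libraries, against 22.4, 27.2, 25.3 and 29.1 CPM in young libraries. No aged library reached down to a young one, and the aged Ri libraries (49.4, 51.2, 59.3, 34.5 and 50.0 CPM) lay with the aged ones. The log2 fold change was 0.91 ± 0.19 (SE), 1.88-fold higher in aged, with an adjusted p of 0.00675. It was lost without young 1, at an adjusted p of 0.0776. With the share of counts at gene ends as a covariate the log2 fold change was 0.57 ± 0.21 (SE, adjusted p = 0.427).

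Myl1, an essential light chain of fast skeletal muscle with a single peak inside the gene, was the other gene sum that rose. It had 12.3, 13.1, 17.6, 12.7 and 9.24 CPM in aged libraries, against 5.49, 6.81, 1.49 and 4.93 CPM in young libraries. The groups did not overlap. The log2 fold change was 1.29 ± 0.35 (SE), with an adjusted p of 0.0316, and the call was lost without aged 2 or 3 or young 1, 2 or 3. With the covariate the log2 fold change was as large, at 1.35 ± 0.40 (SE), and did not pass (adjusted p = 0.268).

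Among single peaks, 1 of Myh9, the heavy chain of non-muscle myosin IIA and the main form in blood cells, was higher in aged libraries. It lay at chr15:77819839-77820538, 21987 bp inside the gene, with 28.1, 36.3, 33.5, 26.7 and 22.3 CPM in aged libraries, against 11.99, 19.2, 2.84 and 16.0 CPM in young libraries. The groups did not overlap, and the log2 fold change was 1.07 ± 0.30 (SE) with an adjusted p of 0.0287. A peak inside Myo1e, at chr9:70331733-70332432, had a log2 fold change of 1.23 ± 0.35 (adjusted p = 0.0334).

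The lower peaks were in Myo10, a motor of filopodia, and at the 3′ end of Myo16. The Myo10 peak, at chr15:25680151-25680850, had 5.61, 8.20, 1.88, 5.47 and 2.67 CPM in aged libraries, against 27.5, 8.25, 9.94 and 5.80 CPM in young libraries. The groups overlapped and young 1 stood above the other young libraries; the log2 fold change was -1.57 ± 0.39 (SE, adjusted p = 0.0126), and 0.288 without young 1. All 5 peak calls were lost without young 1, and likewise without aged 3. With the covariate no myosin peak was called by edgeR (8 at an unadjusted p under 0.05), against 0.258% of all peaks, and no myosin gene sum (6 at an unadjusted p under 0.05), against 0.0837% of all genes.

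Aged Ri cells differed from young cells in more myosin sites than aged cells did, though the difference between those counts was not tested. In aged Ri against young libraries, 17 of 185 myosin peaks were called, 13 higher and 4 lower, against 11.5% of all peaks. At the gene level 5 of 42 sums were called, all higher, against 9.98% of all genes. Both shares lie near those over the genome. A single start-site peak of 33 was called, against 6.23% of all start-site peaks, and 14 of 141 inside peaks, against 13.2%.

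The Myl1 peak, at chr1:66931602-66932301 and 13105 bp inside the gene, had the smallest adjusted p. It had 15.1, 38.3, 25.8, 20.9 and 12.1 CPM in aged Ri libraries, against 4.89, 6.19, 1.42 and 4.84 CPM in young libraries. The aged libraries (9.62, 9.96, 14.3, 10.9 and 8.91 CPM) lay between, and aged Ri and young did not overlap. The log2 fold change was 2.12 ± 0.34 (SE), 4.36-fold higher in aged Ri, with an adjusted p of 8.74e-05. Leaving out any library kept it, with adjusted p from 4.09e-05 to 0.000995, and it was the only myosin peak called with the covariate (0.0035), against 0.994% of all peaks; the Myl1 gene sum was the only sum called there, against 0.483% of all genes. Of the 17 calls, 5 held whichever library was left out (Myl1, Mylk3, the Myo7a peak at 2168 bp and the Myo16 peaks at 138957 and 480624 bp), and 12 were lost without at least 1 library. The Myl1 peak held between 1 and 80 counts per library, so single young values carry a large counting error.

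Of the 4 light chain kinase genes 3 rose as gene sums, beside 9.98% of all genes called, 1147 of 1551 of them higher. Mylk3 had a log2 fold change of 0.90 ± 0.19 (SE, adjusted p = 0.00362). Mylk2, the skeletal muscle kinase, had 25.1, 25.1, 34.1, 24.3 and 27.8 CPM in aged Ri libraries, against 13.97, 8.32, 25.3 and 17.3 CPM in young libraries, with a log2 fold change of 0.87 ± 0.25 (SE, adjusted p = 0.0268). Mylk, the kinase of smooth muscle and non-muscle cells, averaged 180 ± 36 CPM in aged Ri and 131 ± 21 CPM in young libraries (SD), with a log2 fold change of 0.45 ± 0.14 (SE, adjusted p = 0.0428). Mylk4 had a log2 fold change of -0.01 ± 0.14, with an approximate 95% interval of -0.29 to 0.28. With the covariate none of the 3 passed. Mylk2 then had a log2 fold change about as large (0.92 ± 0.32 SE, adjusted p = 0.226), while those of Mylk3 (0.53 ± 0.21 SE, adjusted p = 0.335) and Mylk (0.14 ± 0.15 SE, adjusted p = 0.777) were smaller. Mylk2 was also lost without aged Ri 1 or 3 or young 1 or 2, and Mylk without aged Ri 1, 3 or 5 or young 1 or 2.

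Further calls in aged Ri against young lay in Myh9, Myo5a, Myo5b, Myo6, Myo1d and the kinase genes Mylk3 and Mylk. The Myh9 peak at chr15:77819839-77820538 was higher in aged Ri, at a log2 fold change of 0.90 ± 0.30 (SE, adjusted p = 0.0445). Myo5a, a carrier of organelles, rose as a gene sum, with 205, 222, 239, 178 and 136 CPM in aged Ri libraries, against 127, 141, 117 and 132 CPM in young libraries (log2 fold change 0.54 ± 0.14 SE, adjusted p = 0.0122, lost without aged Ri 3 or young 1). Its peaks at 125392 and 150832 bp inside the gene had log2 fold changes of 0.94 and 0.82. Peaks inside Myo6, which moves toward the minus end of actin (0.70), Myo1d (1.35) and Mylk3 (1.06) were higher as well. So was the Mylk peak at the upstream end of its annotated span, before its listed start site (0.74). Myo5b, a motor of recycling endosomes, had a lower peak (-1.39), with young 3 at 27.0 CPM far above the other libraries of its group.

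Myo7a and Myo10, motors with MyTH4-FERM tails, each had a higher and a lower peak. In Myo7a, known from hair cells and retina, the peak 2168 bp inside the gene had a log2 fold change of 1.12 ± 0.26 (SE, adjusted p = 0.00495) and that at 24860 bp one of -1.32 ± 0.37 (SE, adjusted p = 0.018). The lower one rested on young 1 at 22.6 CPM and was lost without it, at an adjusted p of 0.402. In Myo10 the peaks at 19996 and 57950 bp had log2 fold changes of 0.94 and -1.60.

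The called start-site peak belonged to Myl6, the essential light chain of non-muscle myosin, and is shared with Myl6b. It lay at chr10:128492729-128493428 and covers the Myl6 window printed above. It had 16.7, 25.5, 32.6, 23.0 and 12.5 CPM in aged Ri libraries, against 14.2, 12.4, 14.2 and 7.74 CPM in young libraries. The groups overlapped, and the log2 fold change was 0.82 ± 0.26 (SE, adjusted p = 0.0333). The stronger Myl6 start-site peak, 141 bp before the nearest listed start, averaged 66.6 ± 16.1 CPM in aged Ri, 62.9 ± 16.6 CPM in aged and 79.4 ± 11.3 CPM in young libraries (SD).

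**Figure D4:**
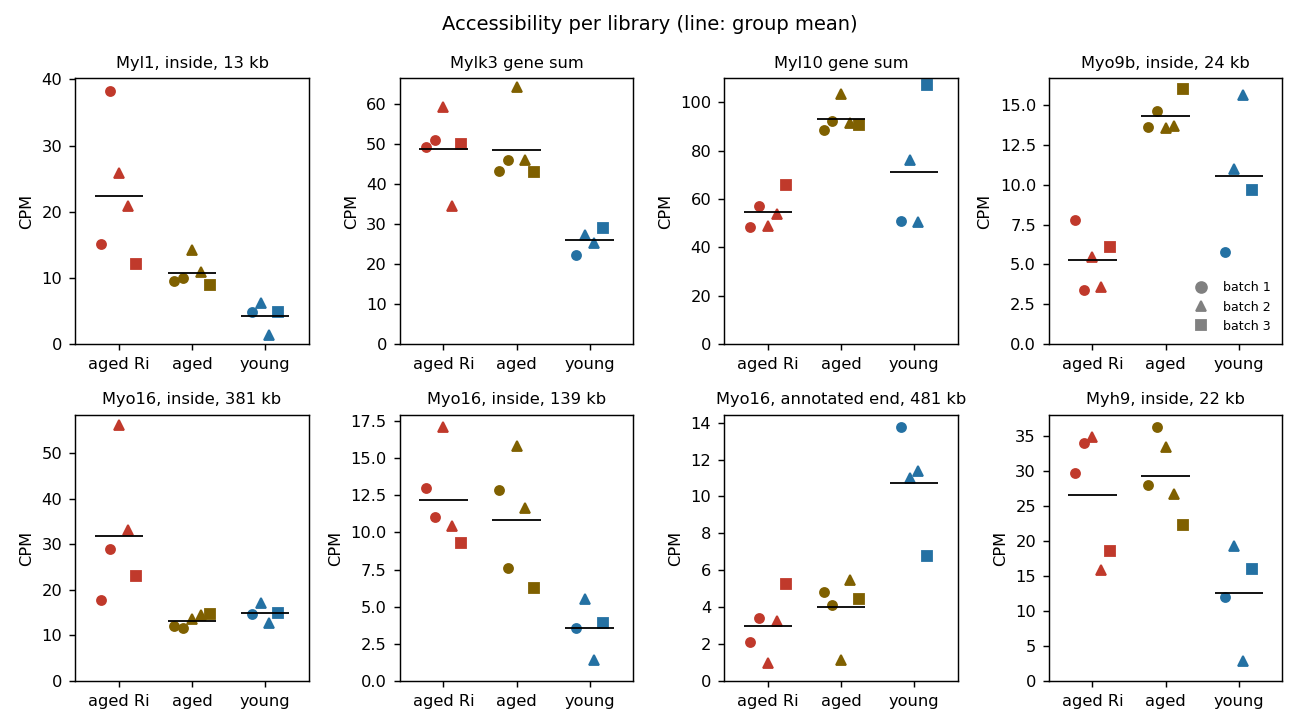
CPM in each library (points, shape by sequencing batch) with group means (lines) for 6 single peaks and 2 gene sums, with the place and the distance of each peak from the start site in the panel title. Aged Ri and aged do not overlap for Myl10, the Myo9b peak and the Myo16 peak at 381152 bp, and aged and young do not overlap for the Mylk3 sum and the Myh9 peak.

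Within Myo16, peaks of the same gene differed in direction. The gene had 10 peaks over its span, 8 inside and 2 at its 3′ end. The peak at 138957 bp had 13.0, 11.1, 17.1, 10.4 and 9.30 CPM in aged Ri, 12.8, 7.62, 15.8, 11.6 and 6.23 CPM in aged and 3.55, 5.50, 1.42 and 3.87 CPM in young libraries. Both aged groups lay above all young libraries, with log2 fold changes of 1.42 ± 0.36 for aged against young (SE, adjusted p = 0.0145) and 1.61 ± 0.35 for aged Ri against young (SE, adjusted p = 0.00233). The peak at 480624 bp, at the 3′ end, had 2.08, 3.41, 0.968, 3.24 and 5.26 CPM in aged Ri, 4.81, 4.10, 1.13, 5.47 and 4.45 CPM in aged and 13.8, 11.0, 11.4 and 6.77 CPM in young libraries. Here both aged groups lay below all young libraries, at -1.50 ± 0.40 for aged against young (SE, adjusted p = 0.0208) and -1.84 ± 0.40 for aged Ri against young (SE, adjusted p = 0.00254). The peak at 381152 bp was higher in aged Ri than in either other group, at 1.05 ± 0.26 against young (SE, adjusted p = 0.00681). The gene sum mixed these and was not called, at log2 fold changes of 0.33 for aged Ri against aged, -0.08 for aged against young and 0.26 for aged Ri against young.

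**Figure D5:**
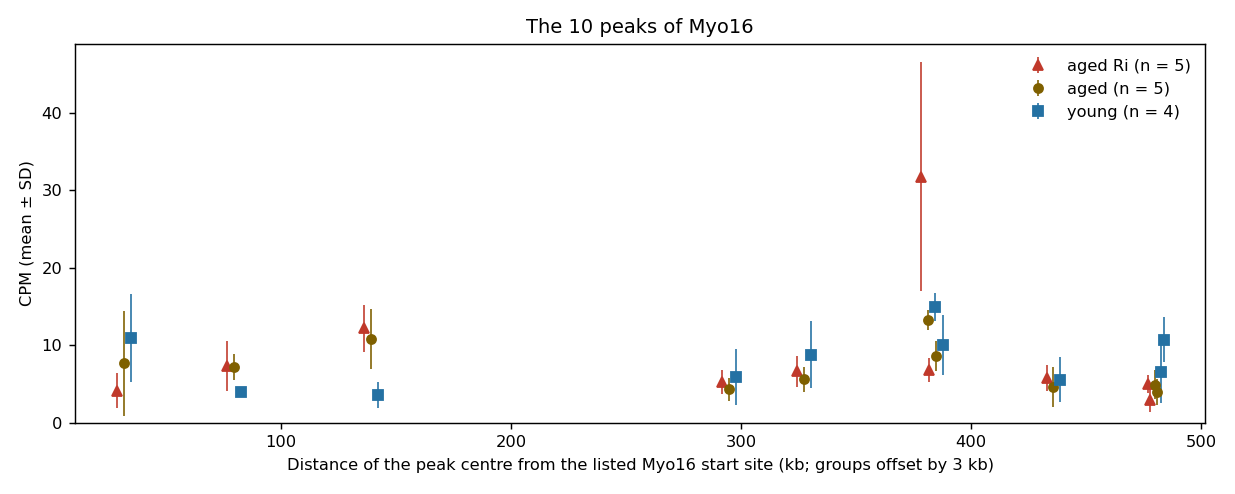
Mean CPM ± SD of the 10 Myo16 peaks by distance from the start site, for aged Ri (n = 5), aged (n = 5) and young (n = 4). At 138957 bp the aged Ri and aged means (12.2 and 10.82) lie above young (3.58), at 480624 bp they lie below it (2.99 and 3.99 against 10.7), and at 381152 bp aged Ri alone is high (31.8).

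The components of cytoplasmic myosin II, the form that RhoA acts on, showed no called gene sum in aged Ri against aged or aged against young by edgeR or DESeq2 (0 and 1 of 8 at an unadjusted p under 0.05). Over all genes 0.0515% and 4.54% were called in these comparisons, so 0 of 8 does not set them apart. The 8 sums are also not all separate. All 3 Myl6 peaks are shared with Myl6b or Smarcc2, 2 peaks count for both Myl6 and Myl6b, and the only Myl12a peak is shared with Myom1. Myh9 had 352, 363, 428, 312 and 285 CPM in aged Ri, 328, 366, 379, 368 and 313 CPM in aged and 312, 331, 361 and 279 CPM in young libraries. Its groups overlapped throughout, and the log2 fold change for aged Ri against aged was -0.02 with an approximate 95% interval of -0.23 to 0.20. The intervals of the same comparison were -0.04 to 0.51 for Myh10, -0.46 to 0.14 for Myh14, -0.14 to 0.35 for Myl6, -0.18 to 0.29 for Myl6b, -0.17 to 0.44 for Myl12a and -0.37 to 0.21 for Myl12b. For aged against young they were -0.10 to 0.36 for Myh9, -0.22 to 0.39 for Myh10, 0.08 to 0.76 for Myh14, -0.18 to 0.35 for Myl6, -0.36 to 0.14 for Myl6b, -0.55 to 0.10 for Myl12a and -0.53 to 0.08 for Myl12b. The interval of Myh14 lies above 0, but its adjusted p of 0.149 did not pass. In aged Ri against young libraries Mylk alone among these genes had a called gene sum. Single peaks of Mylk, of Myh9 and of Myl6 with Myl6b were also called there, as given above.

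The start-site peak of Myh9, at chr15:77841969-77842668, was the strongest of all myosin start sites. It averaged 127.7 ± 32.0 CPM in aged Ri, 136.6 ± 32.1 CPM in aged and 175.1 ± 34.7 CPM in young libraries (SD, n = 5, 5 and 4). Its log2 fold change was -0.08 ± 0.20 for aged Ri against aged, -0.31 ± 0.21 for aged against young and -0.39 ± 0.21 for aged Ri against young (SE), with adjusted p of 0.957, 0.406 and 0.230. With the covariate it was 0.14 for aged against young and 0.05 for aged Ri against young, so the sign of the age difference at this start site depends on that setting.

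A list of 35 further genes between RhoA and myosin II (GTPases, exchange factors, ROCK kinases, phosphatase subunits, calmodulins, LIM kinases, tropomyosins) all had peaks, 118 in total. In aged Ri against aged libraries no gene sum and no peak of the list was called by edgeR or DESeq2 (1 sum and 6 peaks at an unadjusted p under 0.05), beside 0.0515% of all genes and 0.446% of all peaks. In aged against young libraries 1 gene sum rose and none fell, Ppp1r12b, a regulatory subunit of myosin phosphatase, at a log2 fold change of 0.52 ± 0.15 (SE, adjusted p = 0.044). In aged Ri against young libraries no gene sum rose and 2 fell, Calm2, a calmodulin gene (-0.69), and Arhgef11, a RhoA exchange factor (-0.61). Of 117 peaks tested, 5 were higher and 1 lower in aged against young, and 11 higher and 4 lower in aged Ri against young. These counts lie near the shares over the genome, 5.72% and 11.5% of all peaks, and the 1 and 2 of 35 gene sums stand beside 4.54% and 9.98% of all genes. The largest was a peak of Arhgef12, another RhoA exchange factor, at 20.8 CPM in aged Ri, 10.7 CPM in aged and 2.93 CPM in young libraries, with a log2 fold change of 2.46 ± 0.41 for aged Ri against young (SE). A peak of Rock2 averaged 19.1 CPM in aged Ri, 14.5 CPM in aged and 6.14 CPM in young libraries, with log2 fold changes of 1.26 for aged against young and 1.69 for aged Ri against young.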

How the data were processed

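Raw counts per consensus peak were deposited by the authors for 14 libraries, on mm10. The tools named are featureCounts, SAMtools 1.14 and R 4.2.0, per the submitters' processing notes. The aligner, peak caller, duplicate handling and Tn5 shift are not given in the sources used here, and they could change the counts. The sequencing batch, of which there are 3, is from the labels, and every batch holds all 3 groups.

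Peaks were assigned to RefSeq spans (GRCm38.p6) with a flank of 1 kb. Peaks and gene sums were tested in R 4.3.3 with edgeR 4.0.16 (TMM, filterByExpr, robust quasi-likelihood fit, group and batch terms, Benjamini-Hochberg, threshold 0.05). Standard errors come from the log2 fold change and the F statistic, and intervals are 1.96 standard errors either side. Log CPM used a prior count of 2. DESeq2 1.42.0 was an alternative. On simulated counts for aged against young, 42% of 2-fold and 93% of 3-fold changes were called over 54654 peaks, and 90% and 98% over 15455 gene sums. The changes were placed only in peaks or gene sums with a mean count of at least 20, and the simulated means held no batch differences.

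Libraries of the same number were checked for shared deviations from their group means over 25903 peaks. The 5 aged Ri and aged pairs correlated at 0.137 to 0.645, so their numbers were taken as pairs. Both libraries of a pair came from the same batch, and after removal of batch means the range was -0.231 to 0.475. The median was then 0.084, against -0.016 for the other pairs. Only 1 of 5 aged Ri libraries then correlated best with its own number, against 4 before that removal. No library pair of a group agreed within sampling noise.

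Named were all called peaks and gene sums, the cytoplasmic myosin II genes, the 5 genes highest per kb of peak, and per role group up to 2 members with the smallest p. The members and lists were chosen with earlier results of these data known.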

Additional observations from a re-analysis of the deposited data

Results flagged for a closer look

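Single libraries stood apart from the other libraries of their group in 10 of 201 groups examined by Dixon's test, which by chance flags about 1 in 20. Young 1 was high in the Myo7a peak at 24860 bp (22.6 CPM) and in a Myo1d peak (6.22 CPM) and low in the Myl12a start-site peak (74.6 CPM). Young 3, the shallowest library, was high in the called Myo5b peak (27.0 CPM) and in the Myo5b gene sum (50.5 CPM). Aged Ri 2 was high in the same Myo5b peak (10.2 CPM), and aged Ri 3 in the Myo7a peak at 2168 bp (37.4 CPM). Aged 3 was high in the gene sums of Mylk3 (64.4 CPM) and Myl10 (103 CPM), and aged 5 in the Mylk peak at the upstream end of its span (22.3 CPM).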

How the results depend on the processing

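None of the 32 named fold changes that were called changed sign under the alternatives other than leaving out a library. Fits without a library were not counted for sign changes. Of 163 named fold changes that were not called, 55 changed sign under at least 1 alternative other than leaving out a library, and none was called with the new sign. For aged against young, the gene sum of Myo9a went to 0.20 with the covariate (-0.46 without it), that of Myo3a to -0.10 with offsets that remove trends (0.23 without them) and that of Myo16 to 0.04 with the replicate block (-0.08 without it). With the share of counts at gene ends as a covariate the calls for aged against young became 0 peaks and 0 gene sums, and those for aged Ri against young 1 peak and 1 gene sum. With the replicate block the called peaks became 9 for aged against young, 12 for aged Ri against aged and 8 for aged Ri against young, and the gene sums for aged Ri against aged became 3; the numbers of the young libraries do not pair with the others (correlations of -0.278 to 0.070 with aged and -0.201 to 0.073 with aged Ri). Without a batch term aged Ri against young gave 10 peaks and 3 gene sums, aged against young 1 gene sum and aged Ri against aged 0. With only the 2 groups compared, 7 peaks were called for aged Ri against aged and 11 for aged Ri against young. With offsets that remove trends 1 gene sum was called for aged against young, and without the flank 0 for aged Ri against aged. The myosin share fell to 0.288% without the 2 Myo3a peaks (still counted in the total), against 0.930% with them, a choice made after seeing the data. The cause was not tested for any of these. Leaving out each library gave 0 to 12 peaks and 0 to 3 gene sums for aged against young, 0 to 4 and 0 to 1 for aged Ri against aged, 8 to 24 and 2 to 8 for aged Ri against young, and a share of 0.899 to 0.956%. At a median of 7 to 30 counts per peak, 42% of simulated 2-fold changes of single peaks were called, so an uncalled peak does not show that such a change is absent.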

Other observations

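Other short motifs were searched for on both strands of the myosin start-site windows. CACCC, a motif of the KLF family, was in 68.8% of the 32 myosin start sites with a peak and in 40.7% of the 27 without, beside 58.1% and 48.1% of all protein-coding start sites. GGAATG, a motif of the TEAD family, was in 15.6% with a peak and 33.3% without, beside 10.1% and 14.2% of all. TGANTCA, the AP-1 motif, was in 12.5% with a peak and 7.41% without, beside 4.09% and 9.27% of all. AGATAA, a motif of the GATA family, was in 6.25% with a peak and 7.41% without, beside 5.53% and 13.8% of all. These myosin shares rest on few sites. With and without a peak they were 5 and 9 for TEAD, 4 and 2 for AP-1 and 2 and 2 for GATA. GGAA, the core of ETS motifs, was in 96.9% with a peak and 100% without, and so hardly separates any promoters. These are descriptions of the letters in the windows, with no test.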
